A study of Homo sapiens with 24 samples.

Results

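The C/EBP genes encode transcription factors named for the CCAAT box and enhancer sequences to which they were first seen to bind. Their basic leucine zipper (bZIP) domain both reads DNA and pairs the protein with a second bZIP protein, so that the amount of each family member sets which dimers can form. C/EBPα drives the differentiation of granulocytes, adipocytes and hepatocytes, C/EBPβ and C/EBPδ are induced in inflammation, and C/EBPγ has no activation domain of its own and acts through its partners. The 6 genes described here are CEBPD, CEBPA, CEBPB, CEBPG, CEBPE and CEBPZ. They are the rows of the count table whose Ensembl identifiers map to these symbols, 6 of 60675 identifiers in all. CEBPZ belongs to the group by its symbol only, since it encodes a CCAAT-box binding protein without a bZIP domain that works in ribosome biogenesis, whereas the protein usually called C/EBPζ is CHOP, the product of DDIT3.

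The counts come from MIA PaCa-2 cells, an established line of human pancreatic ductal adenocarcinoma (PDAC). C/EBPδ-inducible cells (tet-on CEBPD) carry a pCW57 vector with the doxycycline-responsive transactivator and the CEBPD cDNA behind a TRE promoter, with an mVenus marker, and are a pool of a few clones. CTRL cells (tet-on CTRL) carry the same vector without the cDNA, with an mCherry marker. Both lines were sequenced at 0, 8, 24 and 48 h of doxycycline at 2 µg/mL, with 3 libraries in each of 8 groups and 24 in all. The labels list doxycycline for the 0 h cells too, but the study describes these cells as untreated and they are treated as such here. The libraries are wells seeded in parallel, so that the spread between them is that of parallel cultures.

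The members lie on 5 chromosomes (GRCh38). CEBPD (ENSG00000221869) is a gene of 1 exon at chr8:47736913-47738164 on the minus strand. CEBPA (ENSG00000245848, chr19:33299934-33302534, minus strand) and CEBPG (ENSG00000153879, chr19:33373685-33382686, plus strand) are neighbours, with 71150 bases between them. CEBPB (ENSG00000172216) is at chr20:50190830-50192668 on the plus strand, CEBPE (ENSG00000092067) at chr14:23117036-23120256 on the minus strand and CEBPZ (ENSG00000115816) at chr2:37201612-37231596 on the minus strand. Exons on the other strand cover 12.6% of the exon bases of CEBPB (CEBPB-AS1), 25.3% and 18.5% of those of CEBPA (ENSG00000267580 and ENSG00000267727) and 11.6% and 9.99% of those of CEBPZ (ENSG00000272054 and CEBPZOS). Without a stated strand setting, reads in these stretches cannot be told apart. CEBPD, CEBPG and CEBPE share no exon bases with another gene.

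Promoter windows were searched because CEBPB and CEBPG changed with time in both lines and CEBPA, although it is the neighbour of CEBPG, was not called. RefSeq (GRCh38.p14) gives 2 start sites each for CEBPB and CEBPG and 1 each for CEBPA, CEBPE and CEBPZ, and windows from 250 bases before to 50 after each were read on both strands. The CEBPD window was not analysed here. The C/EBP-ATF composite element, to which dimers of a C/EBP protein and ATF4 are known to bind, was searched as TGATGNAA and stands in 3.62% of 35116 RefSeq windows. Among the members it was found at the second start site of CEBPG alone, as TGATGCAA from base -42. The palindromic C/EBP site, TTGCGCAA (0.151% of windows), and the full cyclic AMP element, TGACGTCA (1.85%), were in none of the members' windows. The short TGACG, which is contained in the full cyclic AMP element, is in 24.6% of windows and was found 57 bases before the second start site of CEBPB and 174 bases before that of CEBPZ. A TATA box, TATAAA (11.5% of windows), was found at base -29 of the second CEBPB start site and at base -30 of CEBPA, and CCAAT or its complement (34.6%) in windows of CEBPB and CEBPG. The CEBPE window held none of these letters. The stretches are printed 5′ to 3′ on the gene's strand, with these matches in capitals. They are the 120 bases before the second start site of CEBPG (chr19:33373993-33374112, plus strand), which lie in an intron of its longer transcript, the 120 bases before CEBPA (chr19:33302535-33302654, minus strand), and a site of 30 bases in CEBPB (chr20:50190770-50190799, plus strand).

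CEBPG: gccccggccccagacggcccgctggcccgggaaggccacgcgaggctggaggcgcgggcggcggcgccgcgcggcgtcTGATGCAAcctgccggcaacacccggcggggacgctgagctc
CEBPA: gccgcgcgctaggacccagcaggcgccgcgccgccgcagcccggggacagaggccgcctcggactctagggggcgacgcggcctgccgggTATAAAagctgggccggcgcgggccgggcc
CEBPB: gcgTGACGcagcggttgctacgggccgccc

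The libraries held 12731237 to 22598595 counts. Levels are given as CPM after TMM scaling of the library totals, and 3 counts, taken as the floor of detection, are 0.133 to 0.236 CPM. The differences are log2 fold changes from edgeR's quasi-likelihood test with their standard error (SE), and a gene was called at a Benjamini-Hochberg adjusted p under 0.01, the study's cut-off. Each count of members called stands beside the share of all tested genes called in the same comparison. CEBPE was tested in none of them because it did not pass the filter on low counts, so that 5 of 6 members were tested. The comparisons of 8, 24 and 48 h with 0 h share the 0 h libraries. No untreated library of 8, 24 or 48 h was analysed here, so that doxycycline and time in culture cannot be told apart in them. The lines differ in the CEBPD cDNA and the fluorescent marker and were derived separately. In a difference between the lines these cannot be told apart. Of the 7 markers of an epithelial carcinoma, KRT8, KRT18, KRT19, SOX9 and MUC1 did not overlap between the lines, with KRT8 at 1005 to 1594 CPM in CTRL cells and 34.5 to 76.3 CPM in C/EBPδ-inducible cells, and KRT18 at 897 to 1175 and 68.7 to 115 CPM, while EPCAM, at 0 to 1.82 and 0.0441 to 2.29 CPM, and KRT7 overlapped. The 7 markers summed to 2277 to 3143 CPM in CTRL cells and 179 to 315 CPM in C/EBPδ-inducible cells. The 5 fibroblast markers summed to 449 to 689 and 137 to 254 CPM, almost all of it COL1A2, while DCN did not exceed 1 count. PDGFRB went the other way, at 0 to 0.0913 CPM in CTRL cells and 0.472 to 1.58 CPM in C/EBPδ-inducible cells. The leukocyte markers PTPRC and CD3E did not exceed 1 count in any library, while CD68 was at 0.527 to 2.02 CPM in CTRL cells and 0.705 to 1.81 CPM in C/EBPδ-inducible cells. The endothelial marker CDH5 was at 0 to 0.418 and 0.236 to 2.28 CPM, and INS, GCG and PRSS1 were at 0 throughout. The share of all genes that did not overlap between the lines was not computed, while 31.8% to 46.9% of genes tested were called between them. The part of these marker differences in the results on the members was not tested. In bulk RNA, fewer cells of a kind and less RNA per cell cannot be told apart.

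CEBPD, the gene of the construct, was higher in C/EBPδ-inducible than in CTRL cells at every time, already before doxycycline, and rose further with doxycycline in C/EBPδ-inducible cells. Reads of the cDNA and of the endogenous gene are counted together, so that the counts cannot say which of the 2 a change comes from. In untreated CTRL cells the 3 libraries had 4.21, 3.71 and 3.92 CPM of CEBPD, and the untreated C/EBPδ-inducible cells had 18.9, 23.5 and 22.3 CPM. The untreated lines thus did not overlap, with a 5.43-fold difference (log2 fold change 2.44 ± 0.11 SE, adjusted p = 2.85e-13).

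After 8 h of doxycycline the C/EBPδ-inducible cells had 267, 240 and 242 CPM of CEBPD, after 24 h 322, 303 and 297 CPM, and after 48 h 212, 199.99 and 200.04 CPM. All 9 treated libraries lay above the 3 untreated ones, the 24 h libraries were the highest, and the 48 h libraries lay below those of 8 h. Against 0 h the level was 11.5-fold higher at 8 h (log2 fold change 3.52 ± 0.06 SE), 14.3-fold at 24 h (3.83 ± 0.05) and 9.36-fold at 48 h (3.23 ± 0.05). From 8 to 24 h it rose by a further 0.31 ± 0.04 SE on the log2 scale (adjusted p = 9.34e-06), and from 24 to 48 h it fell by 0.61 ± 0.04 SE (adjusted p = 4.53e-10).

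**Figure D1:**
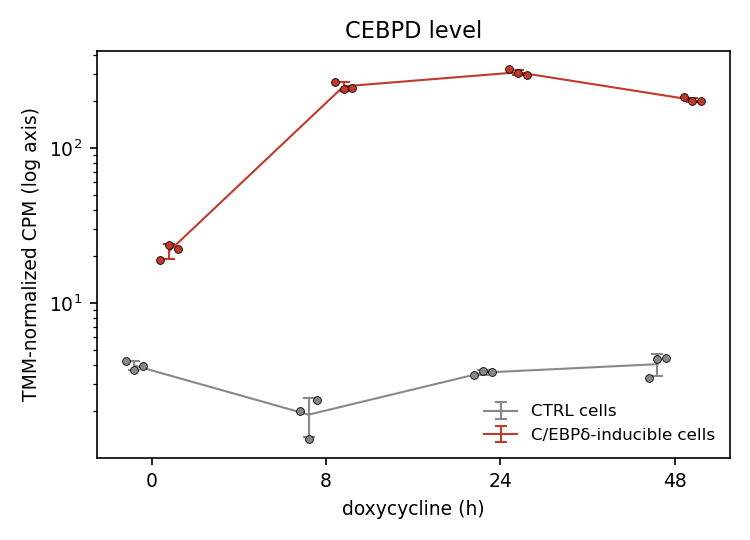
CEBPD in TMM-normalized CPM (log axis) at each time of doxycycline, with 1 point per library and the mean with its SD (n = 3) per group. The C/EBPδ-inducible cells go from a mean of 21.6 CPM at 0 h to 249, 307 and 204 CPM, and the CTRL cells stay between means of 1.90 and 4.02 CPM.

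In CTRL cells CEBPD was 2.02, 1.32 and 2.37 CPM at 8 h, 3.41, 3.65 and 3.59 CPM at 24 h, and 3.29, 4.35 and 4.43 CPM at 48 h. These are 22 to 84 counts per library at these times. The 8 h libraries lay below all other CTRL libraries, with a log2 fold change of -1.02 ± 0.20 SE against 0 h that missed the cut-off (adjusted p = 0.0177), as did the difference between 24 h and 8 h (0.87 ± 0.20, adjusted p = 0.0258). Both were called without the filter on low counts (adjusted p = 1.35e-05 and 0.00036) and in a model of all 24 libraries (adjusted p = 0.00013 and 0.00067). The first was also called without CTRL 8 h replicate 1 or 3 (adjusted p = 0.0079 and 0.0092), and the second without CTRL 8 h replicate 3 (adjusted p = 0.0093). At 24 and 48 h the log2 fold changes over 0 h were -0.15 and 0.02, with 95% confidence intervals from -0.45 to 0.15 and from -0.32 to 0.35.

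Between the lines CEBPD was 129-fold higher in C/EBPδ-inducible cells at 8 h (log2 fold change 7.02 ± 0.12 SE), 85.9-fold at 24 h (6.43 ± 0.06) and 50.8-fold at 48 h (5.67 ± 0.09). The 8 h value is the largest although the 24 h level is the highest in C/EBPδ-inducible cells, since the CTRL level was lowest at 8 h. The change over 0 h also differed between the lines, with interaction terms of 4.56 ± 0.20 SE at 8 h, 3.99 ± 0.16 at 24 h and 3.21 ± 0.16 at 48 h on the log2 scale. In order of the mean, the groups were C/EBPδ-inducible cells at 24, 8, 48 and 0 h, then CTRL cells at 48, 0, 24 and 8 h, and the libraries of neighbouring groups overlapped between CTRL cells at 48 and 0 h only.

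To compare genes, levels were divided by the exon length in kilobases (kb). In untreated CTRL cells CEBPZ had 53.3 ± 0.98 CPM per kb (SD, n = 3), CEBPG 15.3 ± 0.38, CEBPB 12.6 ± 1.06, CEBPA 5.60 ± 0.23 and CEBPD 3.15 ± 0.20. CEBPD was therefore the lowest of the 4 detected bZIP members in CTRL cells. At 24 h in C/EBPδ-inducible cells it was the highest, at 246 ± 10.1 CPM per kb, above CEBPG at 28.8 ± 0.88, CEBPB at 22.0 ± 0.56 and CEBPA at 5.53 ± 0.21. The length used for CEBPD is that of the whole endogenous exon, 1252 bases, of which the construct holds the cDNA.

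CEBPD made up 8.61 ± 0.17% of the summed level per kb of the bZIP members in untreated CTRL cells (SD, n = 3), and 2.69 ± 0.69%, 6.04 ± 0.27% and 6.15 ± 0.51% at 8, 24 and 48 h. In C/EBPδ-inducible cells it made up 25.4 ± 1.67% before doxycycline and 74.4 ± 0.88%, 81.3 ± 0.66% and 73.7 ± 0.95% after 8, 24 and 48 h. The main transcripts of CTRL cells were those of CEBPG and CEBPB, at 41.8 ± 1.36% and 34.3 ± 1.58% in untreated cells, and at 24 h in C/EBPδ-inducible cells these 2 came to 9.54 ± 0.59% and 7.29 ± 0.09%. Counted without division by length, the share of CEBPD was lower in every group, at 3.81% in untreated CTRL cells and 64.2% in C/EBPδ-inducible cells at 24 h.

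**Figure D2:**
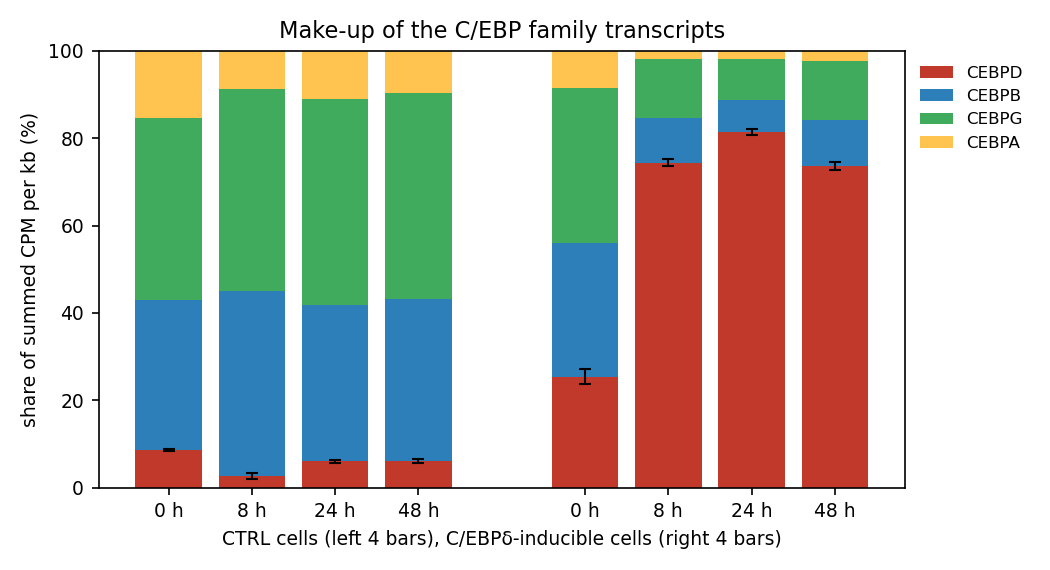
Share of each gene in the summed CPM per kb of CEBPD, CEBPB, CEBPG and CEBPA (CEBPE, at or near 0, is too small to see), with group means as bars and the SD of the CEBPD share as error bars. CEBPD is the smallest share in CTRL cells and the largest in C/EBPδ-inducible cells at 8, 24 and 48 h.

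CEBPB, a factor of the acute-phase response and of adipocyte differentiation that is also translated as shorter isoforms, rose within 8 h of doxycycline in both lines and was higher in C/EBPδ-inducible cells before treatment. The untreated CTRL libraries had 24.3, 20.9 and 24.3 CPM and the untreated C/EBPδ-inducible libraries 35.0, 40.0 and 38.8 CPM. The untreated lines did not overlap, with C/EBPδ-inducible cells 1.63-fold higher (log2 fold change 0.70 ± 0.07 SE, adjusted p = 2.99e-08).

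At 8 h the CTRL cells had 46.1, 43.0 and 41.9 CPM of CEBPB, at 24 h 31.2, 28.9 and 32.5 CPM and at 48 h 34.1, 35.1 and 37.2 CPM. All treated libraries lay above the untreated ones, and those of 8 h were the highest. The level rose by 0.94 ± 0.08 SE on the log2 scale at 8 h (adjusted p = 0.0001) and was 0.41 ± 0.07 above 0 h at 24 h (adjusted p = 0.00023) and 0.61 ± 0.08 at 48 h (adjusted p = 4.89e-05). Between 8 and 24 h it fell by 0.52 ± 0.07 SE (adjusted p = 0.0019), a call that was lost without CTRL 8 h replicate 2 or any 1 of the 3 CTRL 24 h libraries (adjusted p between 0.0159 and 0.0242).

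In C/EBPδ-inducible cells CEBPB was 53.4, 49.4 and 47.7 CPM at 8 h, 41.6, 39.7 and 39.9 CPM at 24 h and 42.3, 42.1 and 42.7 CPM at 48 h. The 24 h libraries overlapped with the untreated ones, those of 48 h lay just above them, and those of 8 h were the highest. The rise at 8 h was 0.40 ± 0.05 SE on the log2 scale (adjusted p = 2.75e-06), followed by a fall of 0.31 ± 0.05 SE from 8 to 24 h (adjusted p = 4.52e-05). At 24 and 48 h the log2 fold changes over 0 h were 0.09 ± 0.05 SE (adjusted p = 0.23) and 0.15 ± 0.05 (adjusted p = 0.0233), and neither was called.

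Between the lines, CEBPB in C/EBPδ-inducible cells was above that in CTRL cells by 0.20 ± 0.07 SE on the log2 scale at 8 h (adjusted p = 0.0371, not called, but 0.0048 without CTRL 8 h replicate 1 and 0.0077 in the model of all 24 libraries), 0.38 ± 0.05 at 24 h (adjusted p = 1.33e-06) and 0.26 ± 0.06 at 48 h (adjusted p = 0.0037). The change over 0 h was smaller in C/EBPδ-inducible than in CTRL cells by the interaction test at 8 h (log2 term -0.52 ± 0.10 SE, adjusted p = 0.0068) and at 48 h (-0.47 ± 0.09, adjusted p = 0.0028). The 24 h term, -0.31 ± 0.09, missed the cut-off (adjusted p = 0.0228), but was called without the filter on low counts (adjusted p = 0.0041). The 8 h call was lost without any 1 of 9 of the 12 libraries (adjusted p up to 0.0307) and with the replicate block (adjusted p = 0.0168). The 48 h term was lost without CTRL 0 h replicate 2, CTRL 48 h replicate 3 or C/EBPδ-inducible 0 h replicate 2 or 3 (adjusted p between 0.0105 and 0.0121), and the 48 h difference between the lines under DESeq2 (adjusted p = 0.0124) or without any 1 of the C/EBPδ-inducible 48 h libraries (adjusted p between 0.0166 and 0.0195). The groups ranked C/EBPδ-inducible cells at 8 h first, CTRL cells at 8 h second and untreated CTRL cells last, and in between the libraries of C/EBPδ-inducible cells at 24 and 0 h overlapped, as did those of C/EBPδ-inducible cells at 0 h and CTRL cells at 48 h and those of CTRL cells at 8 h and C/EBPδ-inducible cells at 48 h.

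CEBPG, whose protein pairs with ATF4 and other C/EBP proteins, rose at 8 h in both lines, remained higher than at 0 h through 48 h in both, and was higher in C/EBPδ-inducible than in CTRL cells at all 4 times. Untreated CTRL cells had 63.7, 61.1 and 60.97 CPM and untreated C/EBPδ-inducible cells 98.5, 99.2 and 93.2 CPM. The lowest C/EBPδ-inducible library was thus far above the highest CTRL library, and the difference was 1.56-fold (log2 fold change 0.64 ± 0.04 SE, adjusted p = 6.74e-11).

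In CTRL cells CEBPG was 95.7, 104 and 115 CPM at 8 h, 88.3, 90.6 and 90.7 CPM at 24 h, and 86.5, 109.8 and 103 CPM at 48 h. Every treated library lay above the untreated ones. The rise over 0 h was 0.79 ± 0.07 SE on the log2 scale at 8 h (adjusted p = 0.00016), 0.54 ± 0.04 at 24 h (adjusted p = 6.54e-09) and 0.68 ± 0.08 at 48 h (adjusted p = 1.91e-05). The steps from 8 to 24 h (-0.24 ± 0.06, adjusted p = 0.0539) and from 24 to 48 h (0.15 ± 0.07, adjusted p = 0.127) were not called, but the first was without CTRL 8 h replicate 1 (adjusted p = 0.00066) and the second without CTRL 48 h replicate 1 (adjusted p = 0.00037).

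In C/EBPδ-inducible cells CEBPG was 145.4, 147.95 and 148.01 CPM at 8 h, 112.5, 118.8 and 118.6 CPM at 24 h, and 118.6, 120.5 and 125 CPM at 48 h. The 8 h libraries were the highest of all 24. The level rose by 0.59 ± 0.03 SE on the log2 scale at 8 h (adjusted p = 6.10e-12), fell by 0.33 ± 0.04 from 8 to 24 h (adjusted p = 3.25e-07), and was 0.27 ± 0.04 above 0 h at 24 h (adjusted p = 9.06e-06) and 0.31 ± 0.04 at 48 h (adjusted p = 1.04e-07). From 24 to 48 h it differed by 0.04 ± 0.04 (adjusted p = 0.482).

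The difference between the lines in CEBPG was 0.49 ± 0.07 SE on the log2 scale at 8 h (adjusted p = 0.00012), 0.37 ± 0.04 at 24 h (adjusted p = 4.77e-09) and 0.28 ± 0.07 at 48 h (adjusted p = 0.0066). The change over 0 h was smaller in C/EBPδ-inducible than in CTRL cells at 24 h (interaction term -0.26 ± 0.05, adjusted p = 0.0014) and 48 h (-0.38 ± 0.09, adjusted p = 0.0095), and at 8 h the term was -0.17 ± 0.08 (adjusted p = 0.229). The 24 h call was lost in the model of all 24 libraries (adjusted p = 0.0819). The 48 h call lies at the cut-off and was lost with RLE scaling (adjusted p = 0.0114), with the replicate block (adjusted p = 0.0131) and without any 1 library other than CTRL 48 h replicate 1 (adjusted p up to 0.0349), while the 48 h difference between the lines was lost without CTRL 48 h replicate 3 or any 1 of the C/EBPδ-inducible 48 h libraries (adjusted p between 0.0174 and 0.0338). In order of the mean, C/EBPδ-inducible cells at 8 h came first, then C/EBPδ-inducible cells at 48 and 24 h, CTRL cells at 8 and 48 h, untreated C/EBPδ-inducible cells and CTRL cells at 24 and 0 h. The libraries of the first, the last and the second last of these overlapped with no neighbour, and those in between overlapped from each group to the next.

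**Figure D3:**
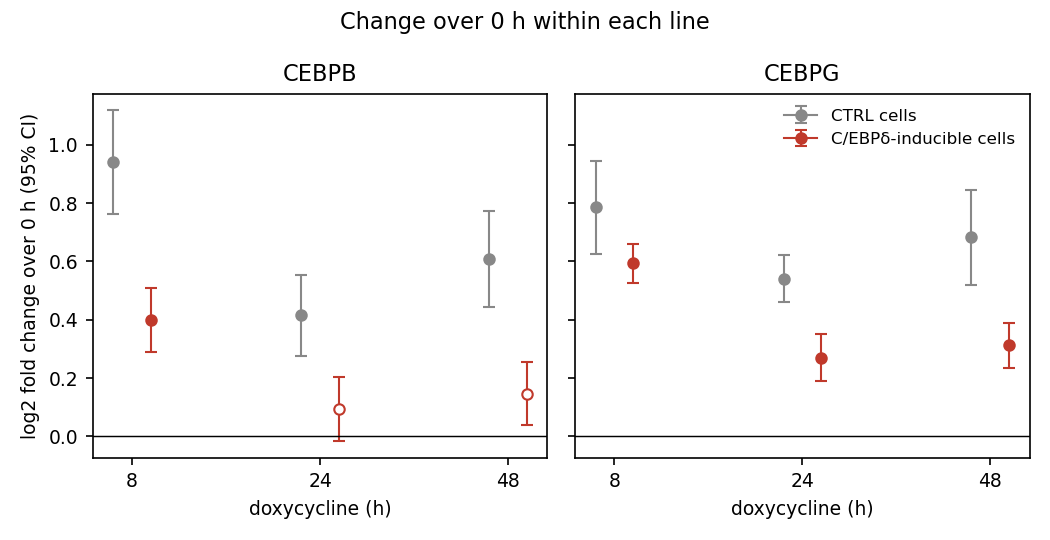
Log2 fold change of CEBPB and CEBPG over 0 h in each line, with 95% confidence intervals from edgeR, filled where called. Both genes are highest at 8 h in each line, CEBPB reaches 0.94 in CTRL cells and 0.40 in C/EBPδ-inducible cells, and the 24 and 48 h points of CEBPB in C/EBPδ-inducible cells are open.

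CEBPA, an inhibitor of proliferation in differentiating cells, was called in 0 of 17 comparisons by edgeR and 0 by DESeq2, with an unadjusted p under 0.05 in 2. Its levels ran from 11.3 to 15.3 CPM over the 12 CTRL libraries and from 11.997 to 16.2 CPM over the 12 C/EBPδ-inducible libraries, with 168 to 353 counts per library. The libraries of every pair of neighbouring groups in order of the mean overlapped. Between the lines the log2 fold changes were 0.04 at 0 h, -0.04 at 8 h, 0.09 at 24 h and 0.08 at 48 h, with 95% confidence intervals from -0.13 to 0.21, from -0.27 to 0.19, from -0.06 to 0.25 and from -0.13 to 0.30. At 0, 8 and 24 h the interval ends below the estimates of CEBPB and CEBPG of the same time. At 8 h the distance is small, with an upper end of 0.187 against 0.198 for CEBPB. The 48 h interval includes the estimates of CEBPB (0.26) and CEBPG (0.28) at 48 h. The nearest to the cut-off was the change at 8 h in C/EBPδ-inducible cells, where the libraries were at 11.997, 12.5 and 13.2 CPM against 15.1, 16.2 and 13.9 CPM at 0 h (log2 fold change -0.28 ± 0.08 SE, adjusted p = 0.011), and it was called without replicate 3 of C/EBPδ-inducible cells at 0 h (adjusted p = 0.0078) or at 8 h (adjusted p = 0.0095).

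CEBPE, which acts late in granulocyte differentiation, had at most 2 counts in any library and was at 0 in 21 of 24. A count of 0 allows a level of up to 0.133 to 0.236 CPM, depending on the library, so that no fold change is given.

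CEBPZ was the most abundant of the 6 genes per kb in CTRL cells and in untreated C/EBPδ-inducible cells. It was higher in C/EBPδ-inducible than in CTRL cells at every time, by 0.18 ± 0.03 SE on the log2 scale at 0 h (adjusted p = 0.00013), 0.32 ± 0.06 at 8 h (adjusted p = 0.0012), 0.16 ± 0.04 at 24 h (adjusted p = 0.00043) and 0.36 ± 0.05 at 48 h (adjusted p = 2.15e-05). The 8 h call was lost without replicate 1 of C/EBPδ-inducible cells at 8 h (adjusted p = 0.0108). The CTRL libraries at 48 h had 153, 163 and 161 CPM against 189.1, 189.3 and 183 CPM at 0 h, a fall of 0.24 ± 0.04 SE (adjusted p = 0.00082). In C/EBPδ-inducible cells the libraries lay between 197 and 221 CPM at all times, none of the 5 comparisons over time was called, and no interaction term was called (0.13, -0.01 and 0.16 at 8, 24 and 48 h, adjusted p at least 0.0696).

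**Figure D4:**
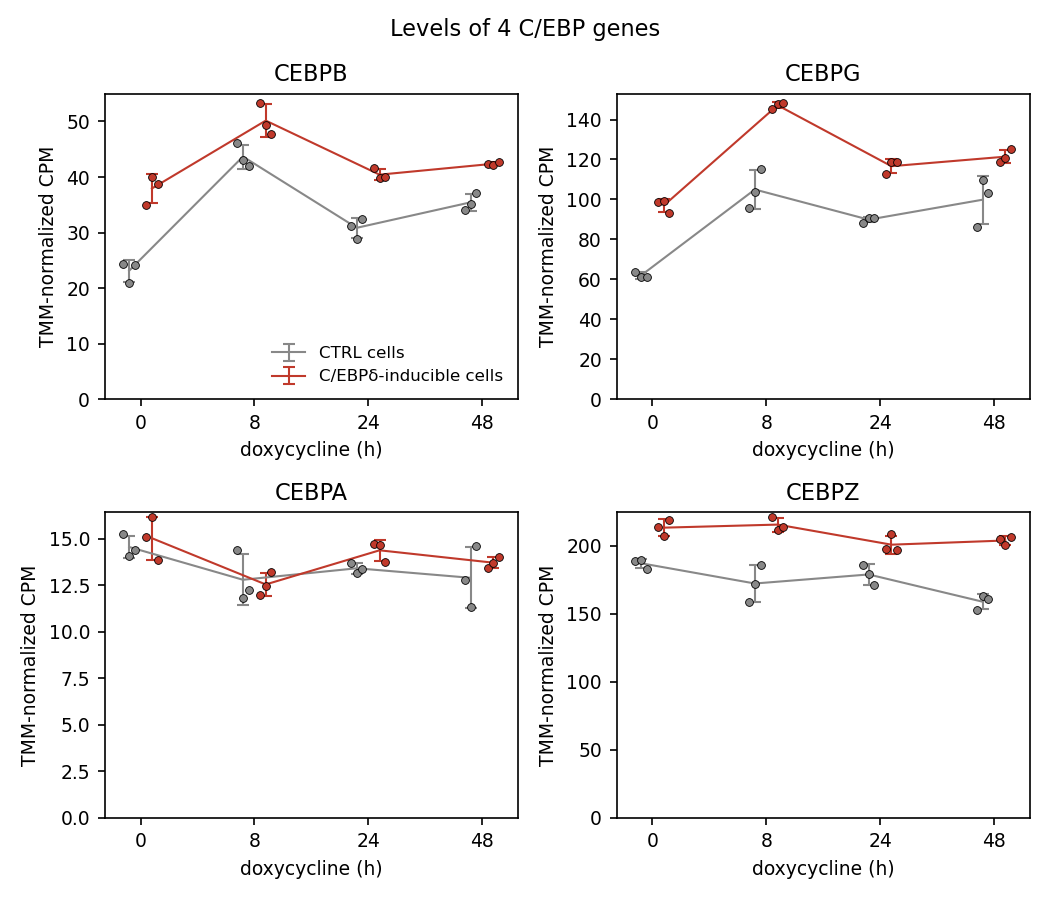
Levels of CEBPB, CEBPG, CEBPA and CEBPZ in TMM-normalized CPM, with 1 point per library and the mean with its SD (n = 3). CEBPB and CEBPG peak at 8 h in both lines, at means of 43.7 and 105 CPM in CTRL cells and 50.2 and 147 CPM in C/EBPδ-inducible cells, while CEBPA stays between means of 12.6 and 15.0 CPM.

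Of the 5 members tested between the lines, 4 were called at 0 h, all higher in C/EBPδ-inducible cells, where 43.9% of all 15317 genes tested were called in either direction. At 8 h 3 of 5 were called (31.8% of all genes), at 24 h 4 of 5 (46.9%) and at 48 h 4 of 5 (38.3%), again all higher. CEBPD, the gene of the construct, was among those called at every time. With so many genes called between the lines, these counts on their own say little about the family. Within CTRL cells 2 of 5 members were called at 8 h against 0 h, CEBPB and CEBPG, where 1.70% of all genes were called, and the same 2 at 24 h (6.06%). At 48 h 3 of 5 were called (30.0% of all genes), with CEBPZ lower. From 8 to 24 h 1 of 5 was called (2.44%) and from 24 to 48 h 0 of 5 (23.5%), although 2 of 5, CEBPB and CEBPZ, had an unadjusted p under 0.05 and 1, CEBPZ, was called by DESeq2, with RLE scaling, without the filter and in the model of all 24 libraries (adjusted p between 0.00041 and 0.0062).

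With doxycycline in C/EBPδ-inducible cells, 3 of 5 members were called at 8 h against 0 h (30.5% of all genes), 2 at 24 h (15.5%), 2 at 48 h (38.7%), 3 from 8 to 24 h (29.6%) and 1 from 24 to 48 h (23.8%), which was CEBPD. By the interaction test, 2 of 5 were called at 8 h (1.66% of all genes), 2 at 24 h (5.84%) and 3 at 48 h (5.54%). In every one of these comparisons CEBPD, the gene that the construct induces, was among those called, so that its call followed from the design. The other interaction calls were CEBPB at 8 h, CEBPG at 24 h and both at 48 h. Leaving out 1 library moved the count of genes called between 8 and 0 h in CTRL cells from 259 to between 92 and 774, that between 24 and 8 h in CTRL cells from 375 to between 74 and 1195, and that of the 8 h interaction from 269 to between 131 and 1196. The highest of these were reached without CTRL 8 h replicate 1 in the first and second and without CTRL 8 h replicate 3 in the third.

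**Figure D5:**
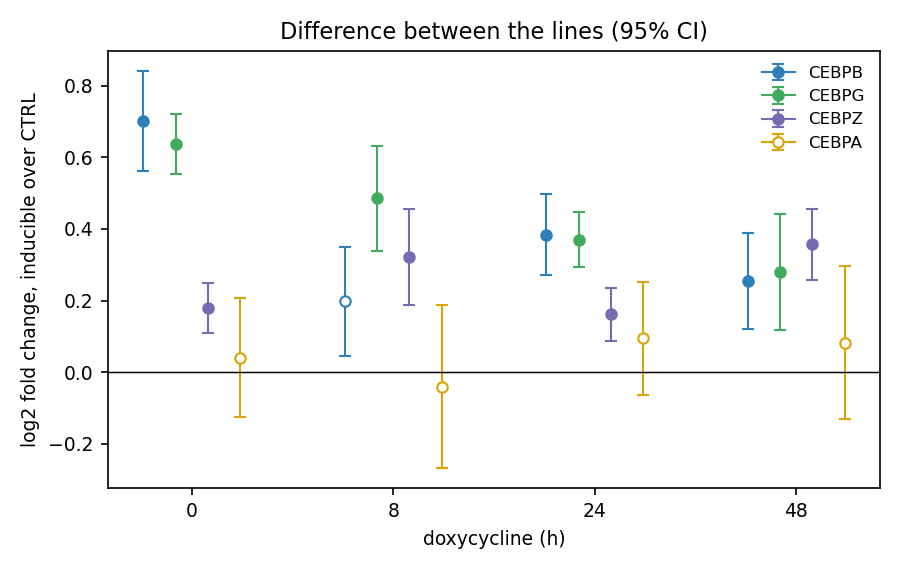
Log2 fold change between C/EBPδ-inducible and CTRL cells at each time for CEBPB, CEBPG, CEBPZ and CEBPA, with 95% confidence intervals from edgeR, filled where called. CEBPB and CEBPG have their highest values at 0 h (0.70 and 0.64), and CEBPA includes 0 at all 4 times.

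Transcripts next to the members were followed by symbol, and 3 of 4 had an identifier. CEBPB-AS1 shares 231 exon bases with CEBPB on the other strand. It was called higher in C/EBPδ-inducible than in CTRL cells at 24 h (log2 fold change 0.88 ± 0.28 SE, adjusted p = 0.0084, where 46.9% of all genes were called) and 48 h (1.24 ± 0.30, adjusted p = 0.0033, 38.3% of all genes). It was also called higher at 8 h than at 0 h in C/EBPδ-inducible cells (0.93 ± 0.26, adjusted p = 0.0059, 30.5% of all genes). Its level was low, and went from 1.06 ± 0.30 to 2.03 ± 0.15 CPM (SD, n = 3) there. In CTRL cells it went from 0.69 ± 0.23 to 1.60 ± 0.66 CPM over the same 8 h, which was not called, and neither was its 8 h interaction. CEBPA-DT was called once, higher by 0.51 ± 0.14 at 48 h than at 0 h in C/EBPδ-inducible cells (adjusted p = 0.0037, 38.7% of all genes). CEBPZOS, which overlaps CEBPZ, was lower in C/EBPδ-inducible than in CTRL cells by 0.27 ± 0.06 at 0 h (adjusted p = 0.00045, 43.9% of all genes) and 0.26 ± 0.05 at 24 h (adjusted p = 8.69e-05, 46.9%), where CEBPZ was higher. CEBPZOS was called higher at 8 h than at 0 h in C/EBPδ-inducible cells, from 36.0 ± 1.12 to 43.6 ± 1.47 CPM (SD, n = 3).

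The bZIP proteins known to pair with C/EBP proteins were followed as a list of 10 genes, of which BATF did not exceed 3 counts in any library. At 8 h against 0 h in CTRL cells 3 of 7 tested were called (1.70% of all genes), all higher, with a median log2 fold change of 0.22 against 0.01 over all genes. They were ATF3, a repressor induced by stress (1.49 ± 0.19 SE), ATF4, the main activator of the integrated stress response (1.21 ± 0.06), and DDIT3 (1.12 ± 0.13), whose protein CHOP blocks DNA binding of its C/EBP partners. ATF4 went from 114 ± 3.43 to 260 ± 16.0 CPM (SD, n = 3). Of 9 tested in the inducible line, 4 were called at 8 h (30.5% of all genes), all higher, with a median of 0.09 against -0.01 over all genes: ATF3 (1.27 ± 0.12), BATF3 (1.05 ± 0.26), ATF4 (0.79 ± 0.03) and DDIT3 (0.50 ± 0.10). These are the times at which CEBPB and CEBPG were highest.

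In CTRL cells alone 7 partners passed the filter at 8 against 0 h and 8 at 24 against 0 h, but 9 did in the interactions. No share of partners called and no median is therefore given for the interactions. At 8 h ATF4 was called (1.66% of all genes were), and rose less in C/EBPδ-inducible than in CTRL cells (-0.39 ± 0.07 SE, adjusted p = 0.0026). At 24 h edgeR called none (5.84% of all genes) and DESeq2 called 1, with an unadjusted p under 0.05 for 4. At 48 h BATF3 was called by edgeR (1.91 ± 0.44, adjusted p = 0.0077, 5.54% of all genes) but not by DESeq2. The BATF3 term rests on low counts in CTRL cells, at most 14 per library. Between the lines at 24 h BATF2 and BATF3 had at most 9 and 12 counts per library in CTRL cells. They thus passed the filter on low counts through C/EBPδ-inducible cells, and no count of calls or median over the partners is given there. At that time 46.9% of all genes were called. Of the partners called, BATF3, an AP-1 family partner, was higher by 2.60 ± 0.24, ATF3 by 1.34 ± 0.12, BATF2 by 1.18 ± 0.37 and JUN by 0.64 ± 0.04. FOS was lower by 0.81 ± 0.15, ATF2 by 0.35 ± 0.05 and ATF5 by 0.17 ± 0.04. In the inducible line BATF3 went from 1.26 ± 0.36 CPM at 0 h to 3.70 ± 0.49 CPM at 48 h, and it did not exceed 0.73 CPM in CTRL cells. DDIT3 shares 27.2% of its exon bases with MARS1 on the other strand.

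Of 15 genes that act on C/EBP expression or on the stability of the proteins, 14 were tested. At 24 h 13 were called between the lines, where 46.9% of all genes were, 8 of them higher in C/EBPδ-inducible cells and 5 lower, with a median of 0.14 against 0.01. The highest in C/EBPδ-inducible cells were IL6R, the receptor of the cytokine IL-6 (1.52 ± 0.11 SE), TRIB1, an adaptor that brings C/EBPα to the ubiquitin ligase COP1 (1.17 ± 0.07), TRIB3 (0.51 ± 0.05) and the ubiquitin ligase SIAH2 (0.49 ± 0.07). The lowest were TRIB2, which acts on C/EBPα as TRIB1 does (-1.19 ± 0.04), STAT3, the factor through which IL-6 signals (-0.97 ± 0.03), IL1R1 (-0.51 ± 0.04) and CREB1 (-0.34 ± 0.05). TRIB1 was 11.8 ± 0.87 CPM in untreated C/EBPδ-inducible cells and 30.3 ± 0.78 CPM at 8 h, against 11.2 ± 0.56 and 11.8 ± 1.07 CPM in CTRL cells (SD, n = 3).

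At 8 h the interaction was called for 1 of the 14 regulators (1.66% of all genes), TRIB1 (1.28 ± 0.12 SE, adjusted p = 1.55e-05). At 24 h it was called for 4 higher and 2 lower (5.84% of all genes), namely IL6R (1.48 ± 0.16), TRIB1 (1.10 ± 0.12), TRIB2 (0.69 ± 0.05), TRIB3 (0.57 ± 0.09), STAT3 (-0.57 ± 0.04) and the glucocorticoid receptor NR3C1 (-0.42 ± 0.06), with a list median of 0.03. At 48 h it was called for 7 (5.54% of all genes), the same 6 genes and IL6ST, the shared receptor subunit of IL-6 cytokines (-0.37 ± 0.08, adjusted p = 0.0064). STAT3 fell from 376 ± 9.38 to 223 ± 8.82 CPM between 0 and 48 h in C/EBPδ-inducible cells and was 490 ± 13.3 and 475 ± 15.7 CPM in CTRL cells.

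Of 22 textbook targets of C/EBP proteins, mostly of the acute phase, 7 did not exceed 3 counts in any library, and 8 passed the filter on low counts when the 48 h libraries of both lines were compared. Since 4 of these 8 were at the floor in CTRL cells, and so passed only through the group in which they were high, no count of calls or median over the targets is given there. With the floor of 3 counts per library in CTRL cells, IL1B (interleukin-1β) was at least 32.0-fold higher, ORM1 (orosomucoid, an acute-phase protein) at least 41.2-fold, SAA1 at least 6.30-fold and the complement component C3 at least 16.4-fold. Not every target was higher. At 48 h CD14 was 0.90 ± 0.05 CPM in C/EBPδ-inducible and 1.30 ± 0.04 CPM in CTRL cells, and LCN2 0.09 ± 0.04 and 0.40 ± 0.29 CPM (SD, n = 3). No target was called lower at 48 h. ORM1 was at 0 counts in untreated C/EBPδ-inducible cells and at 3.23 ± 0.57 and 6.65 ± 0.98 CPM after 24 and 48 h (SD, n = 3).

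CXCL8, a neutrophil chemokine, had the highest counts of the targets in every group. It was 231 ± 8.14 CPM in untreated and 443 ± 15.6 CPM in 8 h C/EBPδ-inducible cells, against 93.8 ± 4.22 and 98.4 ± 18.9 CPM in CTRL cells. Its 8 h interaction term was 0.86 ± 0.13 SE (adjusted p = 0.0009), where 1.66% of all genes were called. Its terms at 24 h (0.48 ± 0.05, 5.84% of all genes) and 48 h (0.76 ± 0.08, 5.54%) were also called. At these times CXCL8 was 223 ± 4.17 and 242 ± 12.8 CPM in C/EBPδ-inducible cells, near the untreated level, and had fallen to 65.2 ± 1.54 and 57.3 ± 5.87 CPM in CTRL cells. C3 was called at 48 h, and no size is given since CTRL cells at 48 h are at the floor. Because targets at the floor in CTRL cells were among those tested, no count of calls over the targets is given for the interactions. The levels of C3 in CTRL cells varied between libraries, from 0.12 to 1.99 CPM at 0 h.

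Over the 8 group means of log2 CPM, which share libraries, depth and the 2 lines, the closest pair of members was CEBPB and CEBPG (Pearson r = 0.96). CEBPA had r of -0.48 with CEBPB and -0.49 with CEBPG, and CEBPD r of 0.57 and 0.70 with them. Among genes whose group means span at least 1 on the log2 scale, the gene most like both CEBPB and CEBPG was SLC7A11, which encodes the cystine transporter of cystine-glutamate exchange (r = 0.99 with each). Its mean rose from 3.55 to 6.23 on the log2 CPM scale between 0 and 8 h in CTRL cells and from 5.69 to 7.23 in C/EBPδ-inducible cells. CEBPB was next most like ENSG00000261770 and ENSG00000260949 (r = 0.97 and 0.96), and CEBPG most like TUBE1 and MTHFD2P7 (r = 0.99 and 0.97), of which MTHFD2P7 is a pseudogene whose counts may come from MTHFD2. The genes most like CEBPD were HCAR3 (r = 0.99), which was at 0 counts in all 12 CTRL libraries, RSPO1 (0.99) and BATF3 (0.99), those most like CEBPA were PPP1R1B (0.96), ENSG00000281258 (0.93) and ID2 (0.92), and those most like CEBPZ were CAV1 (0.98), RNF112 (0.98) and RFPL3S (0.97). The genes named were the highest of 5044 ranked, and the means of CEBPA and CEBPZ themselves span only 0.26 and 0.44 on the log2 scale. These are descriptions over 8 points and carry no test.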

How the data were processed

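RNA-sequencing counts of 24 libraries were analysed. The authors depleted ribosomal RNA, trimmed the 50-base reads, mapped these with HISAT2 on GRCh38 and obtained gene counts with HTSeq, and the deposited counts are neither normalized nor filtered. The strand setting is not given in the sources used here. Libraries were matched to groups by column names and labels, and 56558 of 60675 identifiers to symbols in GENCODE release 44. Library totals (12731237 to 22598595, median 18959363.5) set the precision.

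Counts were scaled by TMM and tested two-sided in edgeR 4.0.16 by quasi-likelihood (R 4.3.3, limma 3.58.1), with only the compared groups in the model, after filterByExpr, with Benjamini-Hochberg adjustment over all genes and a cut-off of 0.01. Interactions are the difference between the lines in the change over 0 h. The script was tested on simulated data. Alternatives were RLE scaling, DESeq2 1.42.0, no filter, a minimum of 10 counts per library, 1 model with all 24 libraries, a replicate block and leaving out each library. Same-numbered libraries deviated together in every pair in 1 comparison, CTRL cells at 24 against 0 h (r from 0.174 to 0.251), where the number may mark a shared origin. Replicates were not copies of one library (chi-square per gene 1.63 to 14.9).

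The members and lists were chosen with earlier results of these data known. The rule for names took the 6 members, up to 4 called genes per list and direction, and the 3 genes with the most similar pattern (prior count 2, span of at least 1).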

Additional observations from a re-analysis of the deposited data

Results flagged for a closer look

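The change over 0 h under doxycycline differed between the lines for 3 members by the test of the interaction, given here on the log2 scale as the change over 0 h in C/EBPδ-inducible cells minus that in CTRL cells (edgeR, adjusted p under the cut-off). For CEBPD the difference was 4.56 at 8 h, 3.99 at 24 h and 3.21 at 48 h. For CEBPB it was -0.52 at 8 h and -0.47 at 48 h, with changes in CTRL cells of 0.94 and 0.61 and in C/EBPδ-inducible cells of 0.40 and 0.15. For CEBPG it was -0.26 at 24 h and -0.38 at 48 h, with changes in CTRL cells of 0.54 and 0.68 and in C/EBPδ-inducible cells of 0.27 and 0.31. The 3 times share the 0 h libraries of both lines, and the CEBPB terms at 8 and 48 h and the CEBPG terms at 24 and 48 h lost the call in 1 or more of the other models or with a library left out, as given with them. No untreated library of a later time was analysed here, so that doxycycline and time in culture cannot be told apart.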

How the results depend on the processing

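Over the other scalings, filters and models tried the log2 fold changes of members kept direction and call in 493 of 510 fits, and over the fits that left out 1 library in 530 of 600. The cause of the changes was not tested. Signs turned only in differences that were not called: for CEBPZ from 24 to 48 h in C/EBPδ-inducible cells under DESeq2 (-0.00093) and without the filter (-0.0014), and, with 1 library left out, for CEBPA between the lines at 0 h (-0.0173 to 0.0907), 8 h (-0.0969 to 0.0501) and 48 h (-0.00173 to 0.171), CEBPD in CTRL cells from 0 to 48 h (-0.063 to 0.144), CEBPA (-0.00633 to 0.148) and CEBPZ (-0.0107 to 0.0889) in CTRL cells from 8 to 24 h, CEBPA from 24 to 48 h (-0.154 to 0.0271), CEBPZ in C/EBPδ-inducible cells from 0 to 8 h (-0.015 to 0.0309) and from 24 to 48 h (-0.0193 to 0.0234), and the interactions of CEBPZ at 24 h (-0.0512 to 0.0173) and CEBPA at 48 h (-0.0604 to 0.119).

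The number of members called moved from 1 to 2 without the filter and in the model of all 24 libraries (CTRL cells, 8 to 24 h, where leaving out 1 library gave 0 to 2), from 0 to 1 with RLE scaling, under DESeq2, without the filter and in the model of all 24 (CTRL cells, 24 to 48 h, 0 to 2 with a library left out), from 2 to 1 with the replicate block at the 8 h interaction (1 to 2) and from 2 to 1 in the model of all 24 at the 24 h interaction. Among smaller moves, it went from 4 to 3 under DESeq2 between the lines at 48 h and from 3 to 2 with the replicate block at the 48 h interaction. With 1 library left out it was 2 to 4 between the lines at 8 h and at 48 h and 1 to 3 at the 48 h interaction. From 0 to 8 h it was then 2 to 3 in CTRL cells and 3 to 4 in C/EBPδ-inducible cells.

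All genes called in CTRL cells from 0 to 8 h numbered 259, but 410 under DESeq2, 843 without the filter, 1229 in the model of all 24 libraries, 87 with the replicate block and 92 to 774 with 1 library left out. From 0 to 24 h they numbered 921, and 582 in the model of all 24 and 505 to 1104 with a library left out. From 8 to 24 h the 375 became 952 without the filter, 1374 in the model of all 24, 244 with the replicate block and 74 to 1195 with a library left out, and from 24 to 48 h the 3621 became 2223 to 4867. In C/EBPδ-inducible cells the 4693 genes from 0 to 8 h became 3127 in the model of all 24, and the 3724 from 24 to 48 h became 2448 to 3629 with a library left out. At the 8 h interaction the 269 genes became 441 under DESeq2 and in the model of all 24, 936 without the filter, 162 with the replicate block and 131 to 1196 with a library left out, and at the 24 h interaction the 948 became 603 in the model of all 24. The replicate block on CTRL cells at 24 against 0 h, where the numbers may pair the libraries, gave 1011 genes against 921 and the same calls of members. In the other comparisons the libraries share only a number, and the block changed no call of a member beyond those of CEBPB at the 8 h and CEBPG at the 48 h interaction.

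Without division by length the share of CEBPD was 3.81%, 1.16%, 2.58% and 2.63% in CTRL cells at 0, 8, 24 and 48 h and 12.6%, 54.3%, 64.2% and 53.5% in C/EBPδ-inducible cells. Depth limits CEBPE, at or under the floor throughout, and CEBPD in CTRL cells at 22 to 84 counts per library. With 3 wells per group, p-values measure the spread between parallel cultures.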
